A study of Gallus gallus with 16 samples.

Results

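The 10 genes described here are core components of the circadian clock: ARNTL (also called BMAL1), CLOCK, PER2, PER3, CRY1, CRY2, NR1D2, RORA, NFIL3 and BHLHE40. They were chosen by gene symbol, and all 10 were found among the 23910 genes of the count table. RNA-seq was performed on COVCAR cells, which are primary ovarian cancer cells grown from the ascites of Leghorn hens (Hy-Line W-36 strain, past their peak laying age) with endometrioid adenocarcinoma of the ovary. Each of the lines C5, C7, C9 and C11 came from 1 hen and was used at passage 3 (C11 at passage 2), and the labels name no genetic change. Every line was kept for 24 h without metformin (control, 0 mM) and with 0.5, 1 and 2 mM of it. Metformin is a biguanide that lowers blood glucose and activates AMP-activated protein kinase. All groups, controls included, were kept in the same serum-free medium with insulin and epidermal growth factor on ultra-low attachment plates, which gave 16 libraries, 4 per dose and 1 per line and dose.

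The circadian clock is a feedback loop of transcription that runs in most cells of the body. ARNTL and CLOCK bind each other and switch on the PER and CRY genes, whose proteins return to the nucleus and inhibit that pair. A second loop, in which NR1D2 represses and RORA activates ARNTL, and output repressors such as NFIL3 and BHLHE40 are tied to the first, and in laying hens clock genes of the ovary have been connected with the timing of ovulation. Because cells were collected at a single time after metformin was added, the values below are levels at that time and hold no phase or period.

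Libraries held between 34724071 and 42531887 reads assigned to genes, and between 14888 and 16903 genes had at least 1 read. Levels are given as CPM, counts scaled to a common library total by the TMM method, and comparisons between genes use CPM per kilobase of exonic length. COL1A1 and COL1A2, collagen genes of fibroblast-like cells, lay between 1867 and 29450 and between 1759 and 22380 CPM. The other fibroblast markers were DCN (222 to 1631 CPM), LUM (1.18 to 65.2 CPM) and PDGFRA (4.06 to 282.5 CPM). EPCAM, an epithelial surface protein, lay between 0 and 0.64 CPM and KRT7, an epithelial keratin, between 203 and 864 CPM. The other epithelial markers found were CDH1 (0.45 to 7.09 CPM), KRT18 (0.24 to 28.7 CPM) and WT1 (0.95 to 21.6 CPM). Of 9 epithelial markers sought, 5 were in the table, so the epithelial character of an adenocarcinoma rests here mainly on KRT7. In bulk RNA, fewer cells of a type and less RNA per cell cannot be told apart.

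The libraries also differed in how strongly the level of a gene depended on its length, and this bears on several clock genes. The slope of the log2 level on log2 exonic length over 10632 genes was between 0.117 and 0.262 in 7 libraries and between -0.291 and -0.0791 in the other 9. The 7 libraries were C9 at all 4 doses, C7 and C11 at 0.5 mM and C5 at 2 mM, so neither line nor dose followed the sign fully. Both sets are called below the libraries with a positive and with a negative length slope. Their total counts overlapped, at 35403643 to 39181361 and 34724071 to 42531887 reads. The origin of the slope was not tested.

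BHLHE40 was the most abundant of the 10 genes in these cells and RORA was near the detection limit. Mean levels per kilobase over the 16 libraries were 130 CPM for BHLHE40, 29.9 for CRY2, 18.3 for CRY1, 13.0 for NR1D2 and 7.59 for ARNTL. They were 4.28 CPM per kilobase for NFIL3, 3.81 for CLOCK, 3.23 for PER2, 1.80 for PER3 and 0.019 for RORA. The ranges over libraries of neighbours in this order overlapped for every pair except the first, BHLHE40 (73.2 to 195 CPM per kilobase) above CRY2 (21.3 to 37.8), and the last, PER3 (0.54 to 3.14) above RORA (at most 0.062). PER2 and CLOCK varied most between libraries, with a highest CPM 12.5 and 10.9 times the lowest, and CRY2 varied least, at 1.77 times.

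**Figure D1:**
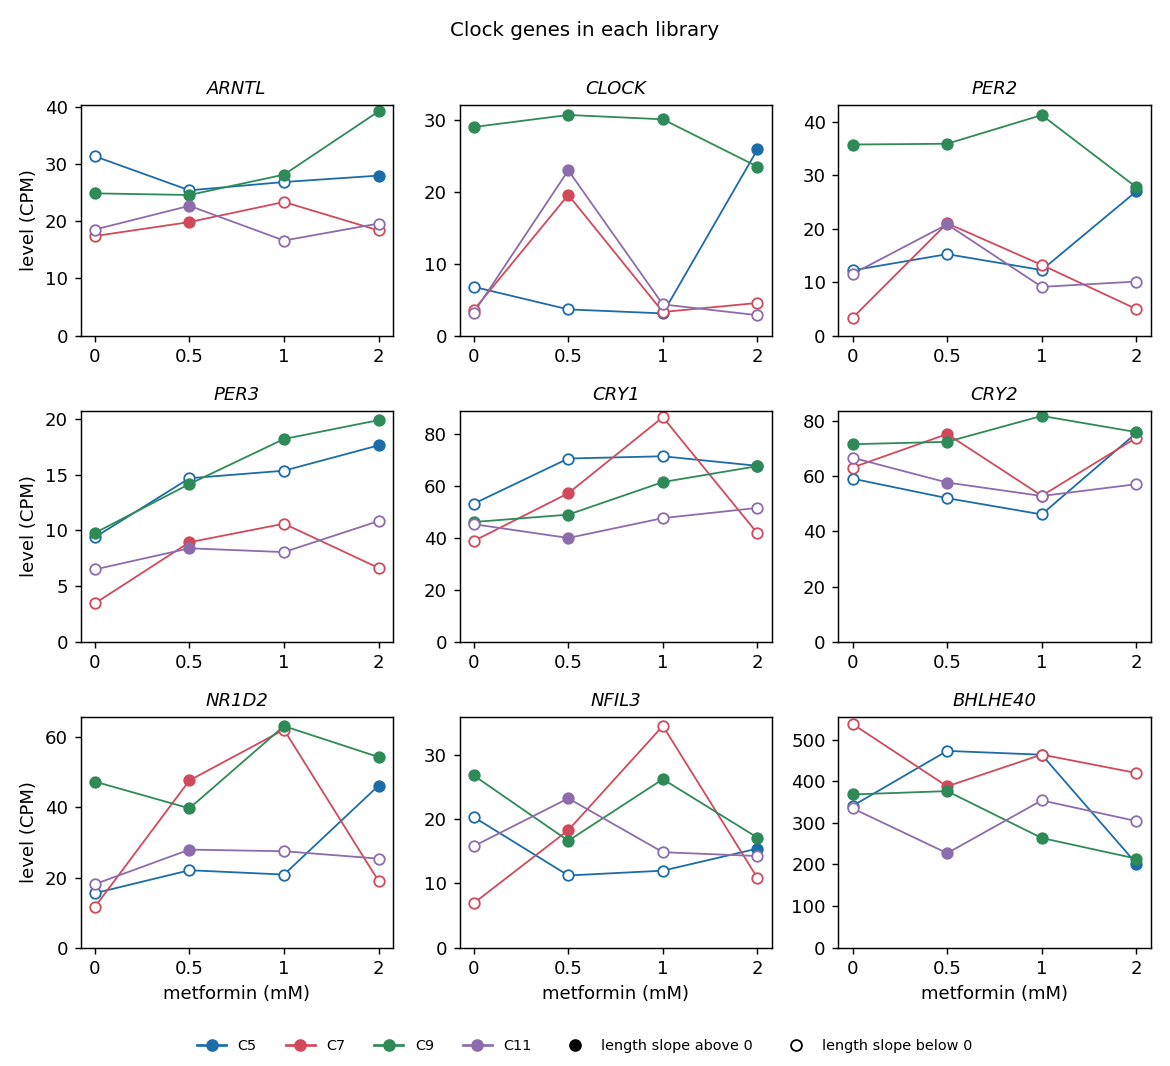
Level of 9 clock genes in each library, in CPM on linear axes that start at 0, against the metformin dose in mM, with 1 colour per cell line and 1 point per library. Filled points are libraries with a positive length slope and open points those with a negative one. Every filled point for CLOCK and PER2 lies above every open point, and PER3 lies above its own control in every line at each dose.

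ARNTL lies at chr5:7820343-7864789 (GRCg6a, minus strand, ENSGALG00000005378) and encodes the bHLH-PAS protein without which the loop does not run in mice. In the control libraries it was at 31.3 (C5), 17.4 (C7), 24.9 (C9) and 18.5 CPM (C11). At 0.5 mM the values in the same order of lines were 25.4, 19.8, 24.6 and 22.7 CPM, at 1 mM 26.8, 23.4, 28.1 and 16.6 CPM, and at 2 mM 28.0, 18.4, 39.2 and 19.6 CPM. All 4 dose groups overlapped, and C5 and C9 stood above C7 and C11 at every dose. ARNTL shares 126 exonic bases with BTBD10 on the opposite strand, and reads were counted by strand.

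CLOCK, the DNA-binding partner of ARNTL, lies at chr4:65084415-65108758 (plus strand, ENSGALG00000013793). It was at 6.79 (C5), 3.55 (C7), 29.1 (C9) and 3.17 CPM (C11) without metformin, and at 3.64, 19.6, 30.8 and 23.0 CPM at 0.5 mM. At 1 mM it was at 3.08, 3.28, 30.2 and 4.34 CPM and at 2 mM at 25.9, 4.54, 23.6 and 2.83 CPM. Its level therefore took 2 separate ranges, 19.6 to 30.8 CPM in the 7 libraries with a positive length slope (794 to 1250 reads) and 2.83 to 6.79 CPM in the 9 with a negative one (97 to 246 reads). Within C5, C7 and C11, which each had a single library with a positive slope, that library held 25.9, 19.6 and 23.0 CPM of CLOCK.

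The mean log2 difference of CLOCK between the libraries with a positive and a negative slope was 2.76, and 228 of 14108 genes had a larger positive one. Pearson's r of the log2 level with the slope was 0.95 over the 16 libraries, which share lines and are no independent points. No overlap between the 2 sets was seen in 15.3% of the 14108 genes, 12.2% higher and 3.16% lower with a positive slope. The 1558 genes within 10% of its 3565 exonic bases had a median log2 difference of 0.28, and 1.67% of them exceeded CLOCK. A list of 6 macrophage markers, all in the table, followed the same split in the opposite direction to CLOCK. Their summed level was 12.0 to 19.3 CPM in the 7 libraries and 23.3 to 158 CPM in the 9. LYZ (at most 101 CPM) and CD74 (at most 49.3 CPM) had the highest single values. C1QA and C1QB, 2 defining genes of the list, were at 0 in some libraries and at most at 2.94 CPM. Sums of the other marker lists overlapped between the 2 sets. Median sums were also lower in the 7 libraries for the fibroblast (13320 beside 28490 CPM), muscle, T cell, and pineal and retina lists. They were higher for the endothelial (14.9 beside 7.49 CPM), epithelial, erythroid and B cell lists. Whether any of these cell types has a part in the CLOCK values was not tested.

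The balance between the 2 partners differed accordingly. CLOCK per kilobase was 0.534 to 1.11 times ARNTL per kilobase in the libraries with a positive slope and 0.102 to 0.232 times in the others.

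**Figure D2:**
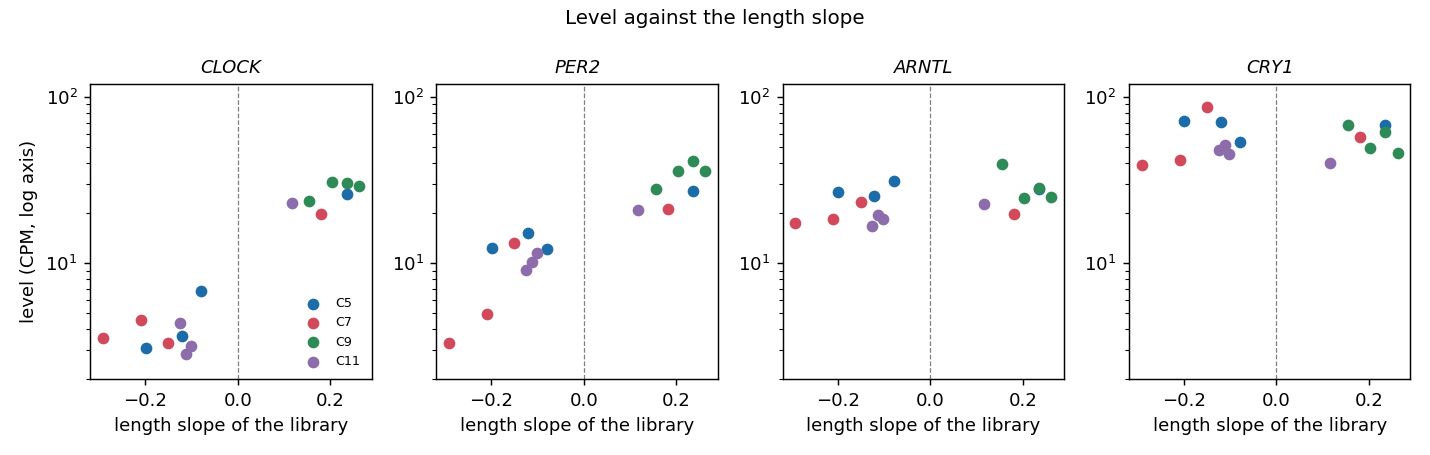
Level in CPM (log axis) of CLOCK, PER2, ARNTL and CRY1 against the length slope of the library (change in log2 level per doubling of exonic length), with 1 point per library and 1 colour per cell line, and a dashed line at slope 0. CLOCK and PER2 fall into separate ranges on either side of 0, and ARNTL and CRY1 overlap.

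PER2 (chr9:5655084-5680030, minus strand, ENSGALG00000005521) and PER3 (chr21:291189-310409, minus strand, ENSGALG00000000573) encode period proteins of the inhibitory complex. PER2 was at 12.2 (C5), 3.30 (C7), 35.8 (C9) and 11.5 CPM (C11) without metformin. At 0.5 mM it was at 15.2, 21.0, 35.9 and 20.8 CPM, at 1 mM at 12.3, 13.2, 41.3 and 9.11 CPM, and at 2 mM at 27.0, 4.97, 27.8 and 10.1 CPM. The 7 libraries with a positive slope (20.8 to 41.3 CPM) again lay above the 9 others (3.30 to 15.2 CPM), by 1.64 on the log2 scale, with r = 0.92 with the slope over the 16 libraries. Of 462 genes of like length, 18.6% had a larger difference than PER2. The macrophage markers, with a lower summed level in the 7 libraries than in the 9 others, thus also went the opposite way to PER2. This is the same split of libraries as for CLOCK and no second observation.

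PER3, which is dispensable for rhythms in mice but follows them in most tissues, was the only gene of the 10 above its own control in each line at each dose. Each line has 1 control library. In C5 it was at 9.36 CPM without metformin and at 14.7, 15.3 and 17.6 CPM at 0.5, 1 and 2 mM. In C7 the values were 3.42, 8.92, 10.6 and 6.61 CPM. In C9 they were 9.75, 14.1, 18.2 and 19.9 CPM, and in C11 6.47, 8.38, 8.03 and 10.8 CPM. The dose groups overlapped because C5 and C9 were higher than C7 and C11 throughout. PER3 rose at each dose step in C5 and C9 but not in C7 and C11. Its exons add up to 6325 bases, more than those of any other of the 10. The 2 sets of libraries overlapped for PER3 (8.38 to 19.9 and 3.42 to 15.3 CPM), with a log2 difference of 0.59. The 383 genes of like length had a median log2 difference of 0.77, and 59.0% of them exceeded PER3.

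CRY1 (chr1:53591410-53626354, minus strand, ENSGALG00000012638) and CRY2 (chr5:24183069-24201831, minus strand, ENSGALG00000008436) encode cryptochromes, the strongest inhibitors of ARNTL and CLOCK in the mammalian loop. CRY1 was at 53.2, 38.8, 46.2 and 45.3 CPM in C5, C7, C9 and C11 without metformin, and at 71.5, 86.6, 61.6 and 47.7 CPM at 1 mM. At 0.5 mM it was at 70.7, 57.3, 49.0 and 40.0 CPM and at 2 mM at 67.8, 41.8, 67.7 and 51.6 CPM, so that every line was above its control at 1 and 2 mM and C11 was below at 0.5 mM. The 1 mM library of C7 was the highest of all 16. CRY1 showed no difference between the 2 sets of libraries, with a log2 difference of 0.01.

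CRY2 stayed between 46.2 and 82.0 CPM. Control values were 59.2 (C5), 63.2 (C7), 71.7 (C9) and 66.8 CPM (C11), and at 2 mM they were 75.8, 74.0, 76.1 and 57.2 CPM. At 0.5 mM they were 52.1, 75.4, 72.6 and 57.8 CPM and at 1 mM 46.2, 53.0, 82.0 and 52.9 CPM, and all dose groups overlapped. CRY1 per kilobase was between 0.399 and 1.16 times CRY2, and exceeded it in 2 of 16 libraries. CRY2 shares 135 exonic bases with SLC35C1 on the same strand, so its count is uncertain by the reads of that stretch.

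NR1D2 (chr2:37152397-37175363, plus strand, ENSGALG00000011291) encodes REV-ERB beta, a heme-binding nuclear receptor that represses ARNTL in mammals. Without metformin it was at 15.5 (C5), 11.6 (C7), 47.4 (C9) and 18.1 CPM (C11). At 0.5 mM it was at 22.1, 47.7, 39.7 and 28.0 CPM, at 1 mM at 20.8, 62.2, 63.2 and 27.5 CPM, and at 2 mM at 46.2, 19.0, 54.4 and 25.4 CPM. All lines were above their control at 1 and 2 mM, and C9 alone was below it at 0.5 mM. The sets with a positive and a negative slope (28.0 to 63.2 and 11.6 to 62.2 CPM) overlapped through the C7 library at 1 mM, with a log2 difference of 1.04.

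RORA (chr10:5138735-5486292, plus strand, ENSGALG00000003759), the activator that opposes NR1D2, had 0 to 8 reads per library. It had no read in 6 of 16 libraries, where a count of 0 allows up to 3 reads. The 7 libraries with a positive slope held 1 to 8 reads and the 9 others 0 or 1, and no fold is given because both sets are near that floor. This limit covers counting error only.

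NFIL3 (chrZ:44356123-44369961, minus strand, ENSGALG00000015209) encodes a bZIP repressor of D-box genes. It was at 20.3 (C5), 6.91 (C7), 26.8 (C9) and 15.8 CPM (C11) without metformin, at 11.2, 18.3, 16.6 and 23.2 CPM at 0.5 mM, at 12.0, 34.5, 26.2 and 14.9 CPM at 1 mM and at 15.4, 10.8, 17.1 and 14.3 CPM at 2 mM. All 3 treated libraries of C7 were above its control and all 3 of C5 and of C9 were below theirs, in C9 at 1 mM by a log2 change of only -0.03. Each line has 1 control library, which its 3 comparisons share. BHLHE40 (chr12:18986975-18991321, plus strand, ENSGALG00000008308), a bHLH protein that competes with ARNTL and CLOCK for E-boxes, was at 341 (C5), 538 (C7), 368 (C9) and 335 CPM (C11) without metformin. At 0.5 mM it was at 473, 388, 376 and 227 CPM, at 1 mM at 464, 464, 264 and 354 CPM and at 2 mM at 202, 420, 214 and 304 CPM, where each line was below its control.

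To ask whether metformin changed these genes, each dose was compared with the control by edgeR's quasi-likelihood test over all genes that passed the count filter, without a term for the line, a gene being called at p under 0.01 and Benjamini-Hochberg adjusted p under 0.05. Of the 9 clock genes tested (RORA did not pass the filter), 0 were called at 0.5, 1 or 2 mM, where 0% of all genes were called too, and 0 in the change per mM over the 16 libraries, where 0.432% were. At an unadjusted p under 0.05 the number was 0 at 0.5 mM, 1 (CRY1) at 1 mM, 0 at 2 mM and 0 for the change per mM, beside 1.1%, 4.77%, 10.6% and 14.8% of all genes. DESeq2 without a block called 0 of the clock genes to which it gave an adjusted p (10, 8, 9 and 9 in the same order, without RORA after the first and without CLOCK at 1 mM), beside 0%, 0.242%, 2.43% and 4.9% of all genes. The median log2 change of the 9 genes was 0.23 at 0.5 mM, 0.27 at 1 mM and 0.18 at 2 mM, beside medians of 0.00 to 0.01 in size over all genes tested. With the length slope as a term in edgeR these medians were 0.14, 0.46 and 0.04, beside 0.01 over all genes at each dose.

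PER3 had the smallest adjusted p of the 9 genes at 2 mM. Its edgeR log2 changes were 0.66 ± 0.38 (SE) at 0.5 mM, 0.84 ± 0.41 at 1 mM and 0.91 ± 0.45 at 2 mM (adjusted p = 0.955, 1.00 and 0.521, n = 4 per group). Within lines the log2 change at 2 mM was 0.91 (C5), 0.94 (C7), 1.03 (C9) and 0.74 (C11), with a mean of 0.90 ± 0.12 (SD, n = 4 lines). An increase in all 4 lines was seen in 18.8% of all genes at that dose, in 16.2% at 1 mM and in 5.55% at 0.5 mM.

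Since libraries of 1 line come from the same hen, the line was also fitted as a block. In edgeR with this block the PER3 change at 2 mM was 0.90 ± 0.18 (SE) with adjusted p = 0.0754, and it was not called, like all other genes (0% called). It was called by DESeq2 with the block (log2 change 0.87, adjusted p = 0.0004738), where 12.7% of all genes were, and by edgeR with the block and the length slope (0.90, adjusted p = 0.0462), where 5.43% were. Over all 16 libraries with both terms it was called at 2 mM (0.85, adjusted p = 0.0223, 10.3% of genes) and per mM (0.38, adjusted p = 0.0491, 16.1% of genes). In these last 2 edgeR fits PER3 was no longer called without C5 (adjusted p = 0.124 and 0.1003, with 0.00704% and 2.03% of all genes called), C9 (0.247 and 0.283, with 0% and 0.953%) or C11 (0.0572 and 0.158, with 3.71% and 9.13%). It was called without C7 (0.0115 and 0.00928, with 15.9% and 22.4%). Of the 12 fits at 2 mM with no line or library left out, 3 called PER3.

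**Figure D3:**
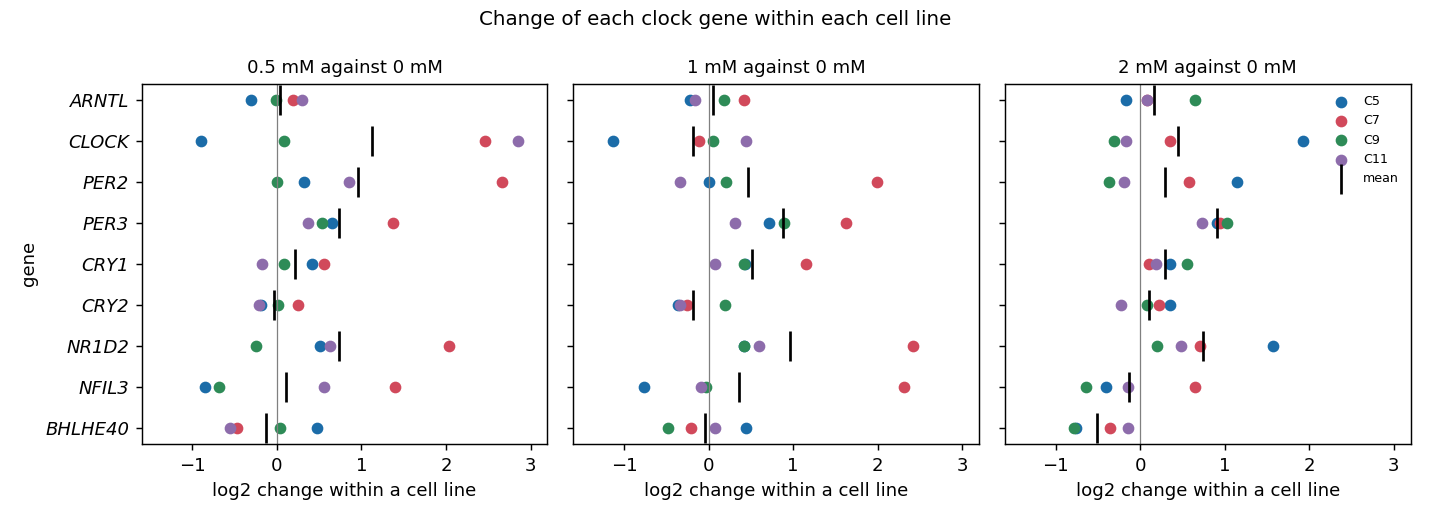
Log2 change of 9 clock genes against the 0 mM library of the same line, in 3 panels for 0.5, 1 and 2 mM, with 1 point per cell line and a black bar at the mean of the 4 lines. At 2 mM the PER3 points lie together between 0.74 and 1.03, whereas those of CLOCK run from -0.30 to 1.93.

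CRY1 and NR1D2 were also above control in all 4 lines at 1 and at 2 mM, as was PER2 at 0.5 mM, where its log2 change was 0.01 in C9. The edgeR log2 change of CRY1 was 0.54 ± 0.23 (SE, adjusted p = 1.00) at 1 mM and 0.31 ± 0.22 (adjusted p = 0.678) at 2 mM, and that of NR1D2 0.91 ± 0.53 (adjusted p = 1.00) and 0.64 ± 0.51 (adjusted p = 0.731). With a line or library left out the NR1D2 change ranged from 0.45 (without C7) to 1.53 (without the C9 control) at 1 mM and from 0.34 (without C5) to 1.26 (without the C9 control) at 2 mM. With the block and the length slope NR1D2 came to 1.02 ± 0.17 at 1 mM and 0.50 ± 0.11 at 2 mM in edgeR (adjusted p = 0.0534 and 0.059), and was not called. Over all 16 libraries with both terms NR1D2 was not called at 2 mM (0.52, adjusted p = 0.198). In that fit it was called without C7 (0.57, adjusted p = 0.0325, with 15.9% of all genes called). It was also called without the C7 library at 1 mM alone (0.50, adjusted p = 0.047, with 14.4% of all genes called). Without C9 it was not called, where 0% of all genes were.

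BHLHE40 was the only one of the 9 genes below control in all 4 lines at any dose, with log2 changes at 2 mM of -0.75 (C5), -0.36 (C7), -0.78 (C9) and -0.14 (C11). A decrease in all 4 lines was seen in 16.5% of all genes. The edgeR log2 change was -0.49 ± 0.29 (SE, adjusted p = 0.614), and -0.52 ± 0.16 with the block (adjusted p = 0.132). Over all 16 libraries with the block and the length slope it was -0.38 ± 0.16 (adjusted p = 0.155). The level of BHLHE40 had r = -0.66 with the length slope, and the log2 difference between the 2 sets of libraries, which overlapped, was -0.52. Of the 2076 genes of like length, 83.9% had a larger difference. Its lowest library was C5 at 2 mM (202 CPM), where that line changed its slope sign.

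For CLOCK and PER2 the dose groups hold different numbers of libraries with a positive slope (1 of 4 controls, 3 at 0.5 mM, 1 at 1 mM, 2 at 2 mM). At 0.5 mM CLOCK went from 3.55 to 19.6 CPM in C7 and from 3.17 to 23.0 CPM in C11, both of which changed sign, and by 0.08 on the log2 scale in C9 and -0.89 in C5, which kept theirs. At 1 mM, where every line kept its sign, the mean within-line log2 change of CLOCK was -0.19 ± 0.67 (SD, n = 4 lines), with -1.13 in C5, and PER2 in C7 changed by 1.99. The edgeR log2 change of CLOCK was 0.85 ± 0.82 (SE, adjusted p = 0.955) at 0.5 mM, -0.06 ± 0.97 (adjusted p = 1.00) at 1 mM and 0.41 ± 0.92 (adjusted p = 0.927) at 2 mM. At 0.5 mM the CLOCK change ranged from 0.46 to 2.09 with a line or library left out, lowest without C11 and highest without the C9 control, and was 0.14 with the length slope as a term and 1.60 over 16 libraries with the block. For PER2 the edgeR changes were 0.56 ± 0.62, 0.27 ± 0.71 and 0.15 ± 0.74, the first with a range of 0.22 to 1.36.

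Lines were compared over the 16 libraries with dose as a factor, and each line stands for 1 hen. The edgeR test called PER2 (largest difference between line means 1.93 on the log2 scale, adjusted p = 0.0402) and PER3 (1.10, adjusted p = 0.0143), 2 of 9 clock genes, beside 14.9% of all genes. PER2 averaged 35.2 ± 5.56 CPM (SD, n = 4 doses) in C9, 16.7 ± 7.02 in C5, 12.9 ± 5.37 in C11 and 10.6 ± 8.17 in C7. PER3 averaged 15.5 ± 4.52 CPM in C9, 14.2 ± 3.49 in C5, 8.43 ± 1.80 in C11 and 7.39 ± 3.10 in C7.

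All 4 libraries of C9 had a positive length slope, so for PER2 the line and the slope cannot be told apart in C9. With the slope as a term, PER3 was called (0.94, adjusted p = 0.0177) and PER2 was not (0.71, adjusted p = 0.162), with 22.0% of genes called. Without C9, 0 of 9 clock genes were called (PER2 0.89, adjusted p = 0.539, and PER3 1.00, adjusted p = 0.114, with 2.44% of genes called), and without C11 PER2 was not called (1.94, adjusted p = 0.0949, with 5.26%). DESeq2 called ARNTL (0.54, adjusted p = 0.0169) and CLOCK (2.37, adjusted p = 0.00443) as well, 4 of the 9 clock genes with an adjusted p, beside 31.6% of genes. ARNTL averaged 29.2 ± 6.86 CPM in C9 and 27.9 ± 2.54 in C5, and 19.7 ± 2.61 in C7 and 19.3 ± 2.54 in C11.

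How the genes varied with each other depended on whether line and length slope were taken out. Pearson's r is given as a description over the 16 libraries, which share lines and differ in depth and length slope. On log2 CPM the pair CLOCK and PER2 had the highest r of the 36 pairs, 0.82. Their r was -0.53 (-0.36 without the C7 library at 1 mM) after the line means and the length slope were removed. With these removed, 84.7% of all genes were at least as like CLOCK as PER2 was, and 86.1% at least as like PER2 as CLOCK was. After that step the highest r was that of CRY1 and NR1D2, 0.94, which was 0.52 before, and 0.142% of all genes were at least as like CRY1 as NR1D2 was. The value was 0.86 without the C7 library at 1 mM. PER3 had r = 0.86 with CRY1 and 0.84 with NR1D2 (0.85 and 0.85 without that library). Of all genes, 1.86% were at least as like PER3 as CRY1 was, and 2.5% at least as like PER3 as NR1D2 was. The lowest r was that of ARNTL and BHLHE40, -0.68.

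**Figure D4:**
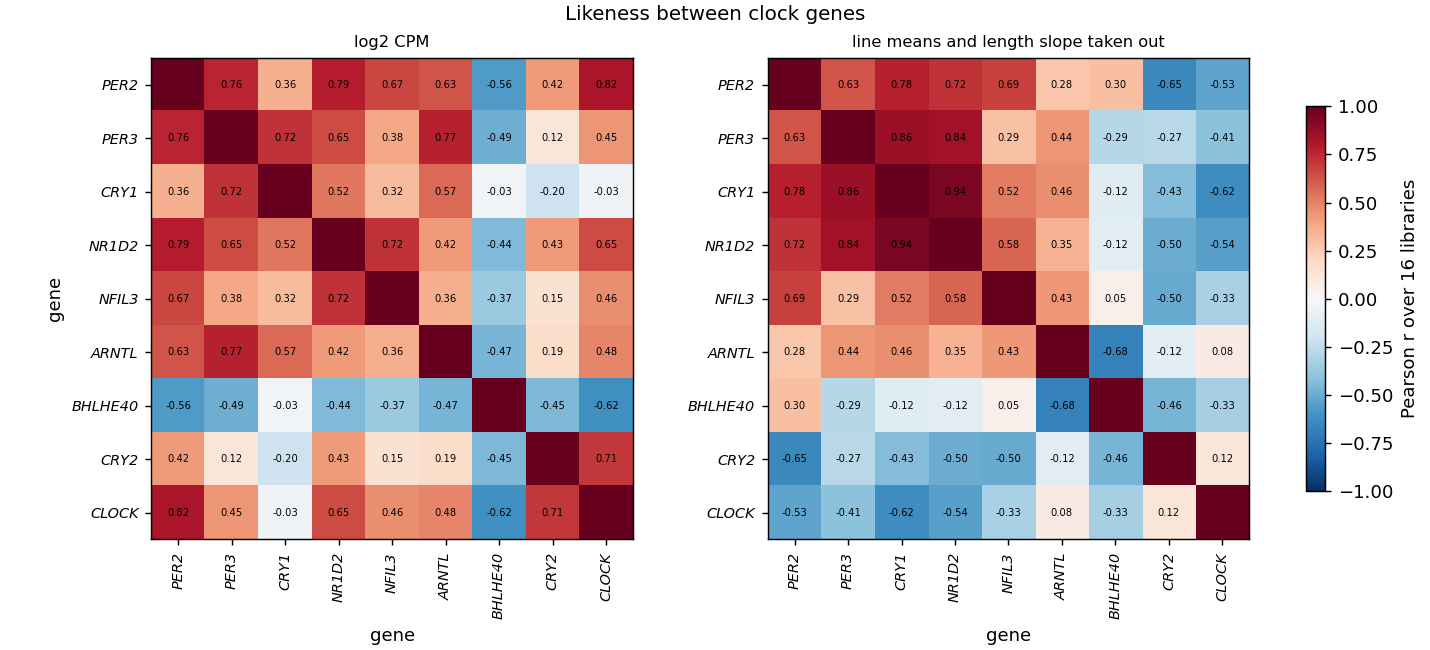
Pearson's r between 9 clock genes over the 16 libraries, on log2 CPM (left) and after the means of the cell lines and the length slope were taken out (right), with each r printed in its cell. On the right PER3, CRY1 and NR1D2 form a block with r between 0.84 and 0.94, and CLOCK and PER2 change from 0.82 to -0.53.

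The gene with a symbol most like each clock gene on log2 CPM was sought among 10868 genes over the same libraries. For CLOCK it was UTRN (utrophin, r = 0.99) and for PER2 the chromatin gene ARID4A (0.98), which themselves had r = 0.94 and 0.94 with the length slope. For NR1D2 it was the CREB family gene CREB5 (0.98), for PER3 the kinase gene STK35 (0.96) and for CRY2 EDEM1 (0.93), which acts in the disposal of misfolded glycoproteins. For BHLHE40 it was PANK2 (0.92), for NFIL3 the splicing regulator PTBP2 (0.89), for CRY1 the receptor gene TNFRSF4 (0.88) and for ARNTL the sodium-calcium exchanger gene SLC8A3 (0.87). After the line means and the length slope were removed another gene was nearest to each of the 9, for example FAM199X to CLOCK (0.94) and FGF2 to NR1D2 (0.98), which were chosen after their values were seen.

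Other genes of the clock were taken from lists of paralogs, nuclear receptors, outputs, kinases, phosphatases, ubiquitin ligases and cofactors, of which 35 beside the 10 were in the table. The edgeR test without a block tested 32 of them at each dose and called 0, with a median log2 change of 0.10 at 0.5 mM, 0.10 at 1 mM and 0.05 at 2 mM. NPAS2, a paralog that can replace CLOCK as the partner of ARNTL in mice, was at 31.8 (C5), 10.4 (C7), 20.2 (C9) and 8.55 CPM (C11) without metformin and at 116, 16.9, 88.0 and 21.5 CPM at 2 mM. At 0.5 mM NPAS2 was at 28.8, 29.2, 13.0 and 15.1 CPM and at 1 mM at 31.0, 26.25, 26.4 and 22.9 CPM. The highest dose value of NPAS2 was thus at 2 mM in C5 and C9, at 0.5 mM in C7 and at 1 mM in C11. Its edgeR log2 change at 2 mM was 1.77 ± 0.70 (SE, adjusted p = 0.418) without a block and 1.503 ± 0.26 with it (adjusted p = 0.0676). It was called at 2 mM by DESeq2 with the block (1.47, adjusted p = 2.371e-05), with 12.7% of all genes. The same held for edgeR with block and length slope (1.52, adjusted p = 0.0496), with 5.43% of genes. Per mM it was called by edgeR with the block (0.82, adjusted p = 0.0322), with 4.96% of genes. C5, which changed its slope sign at 2 mM, and C9, which kept it, held the 2 highest values.

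Among the nuclear receptors, NR1D1 (REV-ERB alpha) was at 7.49, 4.67, 3.01 and 10.9 CPM in C5, C7, C9 and C11 without metformin and at 20.5, 49.0, 6.18 and 18.5 CPM at 1 mM. At 0.5 mM NR1D1 was at 17.5, 9.44, 4.98 and 3.94 CPM and at 2 mM at 4.35, 5.52, 9.99 and 16.9 CPM. It was thus below its control in C11 at 0.5 mM and in C5 at 2 mM. At 1 mM it was called by DESeq2 with the block (log2 change 1.60, adjusted p = 0.00903, with 4.59% of all genes called). At that dose edgeR without a block or with the block alone called 0 of the listed nuclear receptors. The histone acetyltransferase gene CREBBP was called only at 2 mM with DESeq2 and the block (0.53, adjusted p = 0.0311). GSK3B, a kinase that phosphorylates clock proteins, was called only per mM in edgeR with block and length slope (0.20, adjusted p = 0.0318). These 2 fits called 2 of 33 and 2 of 34 of the listed genes, beside 12.7% and 16.1% of all genes.

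Between lines the edgeR test called 4 of 34 of these genes, beside 14.9% of all genes: HLF, BHLHE41, USP2 and NONO. BHLHE41, the paralog of BHLHE40, was lowest in C9 at every dose, at 3.89, 6.51, 3.76 and 8.87 CPM, beside 13.0 to 47.7 CPM in the other lines (largest difference 2.31 on the log2 scale, adjusted p = 0.0132). The genes TEF, PRKAA1, BTRC, FBXW11, USP7 and EP300 lay higher, and PPP1CA lower, in all libraries with a positive slope than in all others, 7 of 35, beside 15.3% of all genes. PRKAA1, a catalytic subunit gene of AMP-activated protein kinase, was at 20.0 to 30.5 CPM in the former and 5.39 to 11.5 CPM in the latter.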

How the data were processed

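RNA was taken from COVCAR lines C5, C7, C9 and C11 after 24 h without or with metformin (0.5, 1 and 2 mM) and made into stranded single-read mRNA libraries. The authors deposited whole-number counts per gene, obtained per the labels with HISAT2 2.1.0 on GRCg6a and featureCounts, here with strand setting 2 as the count header gives it. Total counts were 34724071 to 42531887 per library. Deposited tables with the authors' own fold changes and p-values were not used.

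Counts were tested with edgeR 4.0.16 (limma 3.58.1, R 4.3.3) by quasi-likelihood F tests with TMM scaling, filterByExpr and Benjamini-Hochberg adjustment over all genes tested. Each dose was compared with the control on 8 libraries without a block, the change per mM and the lines on all 16. A gene was called at p under 0.01 and adjusted p under 0.05. The SE of an edgeR log2 change was derived from the test, as its absolute value divided by the square root of F. DESeq2 1.42.0, RLE scaling, other count filters, the line as block, the length slope as covariate, all 16 libraries in 1 fit and leaving out lines or libraries were the alternatives. Alternatives by slope sign and the left-out lines of the fits with both terms were added after the data were seen. Replicate numbers are the line numbers, so equal numbers mean the same hen and pair the samples. The length slope was fitted on log2 CPM (prior count 1), centred per gene, over genes with a mean of at least 100 reads, the tested genes included. The fits were tested on simulated data.

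The 10 genes and the lists of other clock and marker genes were chosen with earlier results of these data known. Named are all 10 genes, list genes called in a comparison or in its fit with a block, and for each of the 9 tested the most alike gene. A list gene that this rule would name is not reported here. Genes that differ without overlap between the slope signs were named after their values were seen. Gene names are those of the count table, in which 10393 genes have no symbol and 12 of 57 list genes were not found. No sequences are shown.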

Additional observations from a re-analysis of the deposited data

Results flagged for a closer look

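In groups of 4 libraries of a dose, 5 of 36 gene and dose combinations had a lowest or highest library whose gap to the next exceeded Dixon's 95% limit. That limit flags about 1 in 20 groups of exchangeable normal values. The 4 libraries of a dose come from different hens and differ in length slope. The share over all genes was not computed, so the 5 of 36 are not read as an excess. CLOCK was far higher in C9 than in the other lines at 0 mM (29.1 CPM) and at 1 mM (30.2 CPM), and so was PER2 at 1 mM (41.3 CPM). C9 was the only line with a positive length slope at those doses. CRY2 was lowest in C11 at 2 mM (57.2 CPM), and BHLHE40 was highest in C7 at 0 mM (538 CPM).

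In 3 genes every treated library of a line lay on the opposite side of its control from every treated library of another line. This difference between lines was not tested. The 3 changes of a line share 1 control library. The share of all genes with such a pattern was not computed, so the 3 genes are not read as an excess. The mean log2 change of the 3 treated libraries of NFIL3 was 1.46 in C7, -0.67 in C5 and -0.46 in C9. For ARNTL it was 0.23 in C7 and -0.23 in C5, and for CRY2 0.10 in C9 and -0.26 in C11.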

How the results depend on the processing

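The counts of clock genes called per dose without a block stayed at 0 with RLE scaling, other count filters and any line or library left out. The number rose from 0 to 1, PER3, at 2 mM with DESeq2 and the replicate block (0.87) and in edgeR with the replicate block and the length slope (0.90). It also rose to 1, PER3, over all 16 libraries with both terms, at 2 mM (0.85) and for the change per mM (0.38). In these last 2 fits it ranged from 0 to 2 and from 0 to 3 with a line or the C7 library at 1 mM left out. With no line or library left out, the block changed no other call of these genes. Between lines, 2 became 4 with DESeq2, 1 with the length slope, 1 without a dose term (ARNTL, 0.59) and 0 in the libraries with a negative slope, and ranged from 0 to 3 with a line left out. Without a dose term the PER2 and PER3 differences were 1.73 and 1.07.

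The calls over all genes moved more. At 0.5 mM, 0 became 1 with DESeq2 and the block. At 1 mM, 0 became 34 with DESeq2, 631 with DESeq2 and the block, 234 with the block and the slope and 25 over 16 libraries with both. At 2 mM, 0 became 365, 1841, 722 and 1458 in the same fits, 3 over 16 libraries without and 293 with the block. For the change per mM, 61 became 731 with DESeq2, 40 without a count filter, 700 with the block, 901 with the slope, 2277 with both, and 0 without the 2 mM libraries, without the controls or in the libraries with a negative slope. It ranged from 0 to 107 with a line left out. Between lines, 2099 became 4775 with DESeq2 and 859 in the libraries with a negative slope, and ranged from 337 to 2790.

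Directions of small log2 changes turned, with the cause not tested. At 0.5 mM ARNTL (-0.00031) came to 0.00031 without a count filter, 0.0021 with a mean of at least 1 CPM, 0.033 with the block, 0.0036 in DESeq2 with it, and 0.0055, 0.043 and 0.0020 over 16 libraries without block, with it and with both terms. NFIL3 (-0.02) came to 0.086, 0.059 and 0.015 with the block in edgeR, DESeq2 and 16 libraries. BHLHE40 (-0.12) came to 0.016 with the slope, 0.090 with both terms, 0.13 over 16 libraries and 0.24 in C5 and C9 alone, where CLOCK came to -0.061 and NR1D2 to -0.033. At 2 mM PER2 came to -0.12 with the slope and -0.0068 over 16 libraries with both terms, and CLOCK to -0.0064. Per mM CLOCK came to -0.042 with the slope, -0.052 with both terms, -0.16 and -0.062 in the libraries with a negative and a positive slope, -0.076 without the 2 mM libraries and -0.22 without the controls. Per mM without the 2 mM libraries PER2 came to 0.26, CRY2 to -0.17 and NFIL3 to 0.32, without the controls CRY1 to -0.00065 and NR1D2 to -0.0080, and with a negative slope only ARNTL to -0.14.

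With a line or library left out, log2 changes at 0.5 mM ranged from -0.11 to 0.18 for ARNTL, -0.12 to 0.062 for CRY2, -0.31 to 0.29 for NFIL3 and -0.32 to 0.064 for BHLHE40. At 1 mM they ranged from -0.079 to 0.21 for ARNTL, -1.57 to 1.18 for CLOCK, -0.44 to 1.07 for PER2, -0.26 to 0.61 for NFIL3 and -0.22 to 0.14 for BHLHE40. At 2 mM they ranged from -0.075 to 0.33 for ARNTL, -0.22 to 1.66 for CLOCK and -0.25 to 0.95 for PER2. Per mM they ranged from -0.022 to 0.16 for ARNTL, -0.35 to 0.25 for CLOCK and -0.23 to 0.12 for PER2. With both terms, the ranges per mM were -0.030 to 0.15 for ARNTL, -0.14 to 0.046 for CLOCK, -0.069 to 0.038 for PER2 and -0.23 to 0.025 for NFIL3, and at 2 mM -0.083 to 0.30 for ARNTL, -0.20 to 0.070 for CLOCK, -0.052 to 0.050 for PER2 and -0.019 to 0.14 for CRY2. With 4 lines and 1 library per line and dose, changes smaller than the standard errors given cannot be resolved. Changes several times larger than their standard error were not always called either. PER3 at 2 mM was not called in edgeR with the block (0.90 ± 0.18). Nor was it called without a block, where its standard error was larger (0.91 ± 0.45).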
